A study of Mus musculus with 6 samples.

Results

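The transporter genes described here are the members of 6 solute carrier families that move sugars, amino acids and monocarboxylates across membranes. They were chosen by symbol alone: every gene named Slc2a, Slc5a, Slc6a, Slc7a, Slc16a or Slc38a followed by a number and nothing else. The rule found 80 of the 24054 genes in the tables, with 12 members of Slc2a, 11 of Slc5a, 17 of Slc6a, 15 of Slc7a, 14 of Slc16a and 11 of Slc38a. Members whose symbols end in a letter, such as Slc6a20a, fall outside the rule and were not counted.

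The values come from RNA-seq of one mouse ESC line, DKI, with 2 independent biological replicates for each of 3 sorted populations. All 6 samples carry the same knock-in alleles, a heterozygous Foxa2-Venus and a homozygous Sox17-Cherry fusion. The d0 cells are pluripotent ESCs negative for both reporters, collected before differentiation. The d3F cells had 3 days of Wnt3a and Activin A and were sorted as Foxa2-Venus positive and Sox17-Cherry negative. The d5FS cells had 5 days of the same treatment and were positive for both. The differentiation medium replaces the serum-containing ESC medium on the first day, so population, day, sorting gate and culture medium cannot be told apart in these comparisons. The line is a single one, its cells had been grown on embryonic fibroblast feeders that were removed before the experiment, and a sorted population gives an average over its cells. In such bulk samples fewer cells of a type and less RNA per cell cannot be told apart.

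Sugar carriers of the Slc2a family let hexoses pass down their gradient, whereas most Slc5a proteins use the sodium gradient to pull in sugars, inositol or vitamins. Slc6a carriers depend on sodium and chloride and take up neurotransmitters, taurine, creatine and amino acids. Slc7a holds the cationic amino acid carriers and the light chains that need a heavy chain, for most of them Slc3a2, to reach the membrane. The best known Slc16a proteins move lactate and pyruvate together with protons, with basigin or embigin as chaperones, and Slc38a proteins are sodium-coupled carriers of glutamine and other small neutral amino acids. Pluripotent cells are known for a high rate of glycolysis, with lactate export, and for a strong demand for certain amino acids.

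Sequencing depth was 16457729 to 22768686 expected counts per sample, where an expected count is the number of read pairs that RSEM, a quantification program, assigns to a gene. A level is given below as CPM, expected counts per 1000000 after TMM scaling (a correction for library composition), unless another scale is named, and 3 counts correspond to 0.122 to 0.172 CPM. The labels of the populations were checked against marker genes. All 6 pluripotency markers (Pou5f1, Nanog, Sox2, Zfp42, Klf4, Esrrb) were lower in d5FS than in d0. From d0 to d3F all 6 mesendoderm markers rose, and all 7 definitive endoderm markers, Foxa2 and Sox17 among them, were higher in d5FS than in d0. Markers of other cell types also moved. Of 9 visceral endoderm markers, 6 were higher in d5FS than in d0, and the summed level of all 9 was 32.5 and 81.1 CPM in d0, 23.3 and 30.8 in d3F, then 274 and 283 in d5FS. Most of the d0 sum was Rhox5, with 25.4 and 75.2 CPM in d0 and 21.8 and 36.3 in d5FS, which was not called. Of 6 fibroblast markers, 3 (Col1a1, Col1a2, Postn) were higher, and all 6 together had summed levels of 7.72 and 12.3 CPM in d0, 27.5 and 71.4 in d3F, then 173 and 178 in d5FS. Most of the d5FS sum was Col1a2, with 110 and 156 CPM. Thy1 went the other way, from 3.07 and 1.49 CPM in d0 to 1.02 and 0.459 in d5FS, and was not called. Lum had no count in either d5FS sample, and Dcn stayed at 0.745 CPM or less in all 6 samples. The part of these cell types in the differences between d0 and d5FS given below was not tested.

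A gene counts as called when its Benjamini-Hochberg adjusted p in edgeR's quasi-likelihood test, over all genes tested, was under 0.05 and its log2 fold change was above 1 or below -1. This fit, with all 6 samples and no replicate block, is the main fit. Calls described below as made without the block are those of the main fit. Of the 80 members, 55 had enough counts to be tested. From d0 to d3F, 0 members were called higher and 1 was called lower, against 2.80% and 1.90% of the 14539 genes tested (4.70% in either direction). From d3F to d5FS, 1 was called higher and 0 lower, against 1.08% and 0.461% of all genes (1.54% in either direction). At an unadjusted p under 0.05 in edgeR, 11 members were higher and 3 lower in the first of these steps. In either direction that is 25.5% of the tested members, against 20.6% of all genes. In the second step 9 were higher and 11 lower, or 36.4% of the tested members against 18.1% of all genes. The DESeq2 Wald test called 5 higher and 2 lower, then 7 higher and 4 lower, and its share over all genes is not given. From d0 to d5FS, 12 members (21.8% of those tested) were called higher and 6 (10.9%) lower, against 12.4% and 10.4% of all genes, so 32.7% of the tested members were called in either direction against 22.8% of all genes. The members' share is above the background for the higher calls and close to it for the lower ones. The median log2 fold change of the 55 members was 0.21 from d0 to d5FS, against 0.02 over all genes tested. For the first step, d0 to d3F, this median was 0.34 (all genes -0.01), and for the step from d3F to d5FS it was -0.35 (all genes 0.01). All 3 comparisons share samples with each other. In an alternative fit with the replicate number as a block, 3 members were called higher and 1 lower from d0 to d3F (5.57% and 3.51% of all genes, 9.08% in either direction), 3 higher and 2 lower from d3F to d5FS (3.27% and 3.04%, or 6.31%), and 14 higher and 7 lower from d0 to d5FS (15.9% and 13.6%, or 29.5%). All 20 calls made without the block were kept, and where the block adds a call its value is given with the gene.

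**Figure D1:**
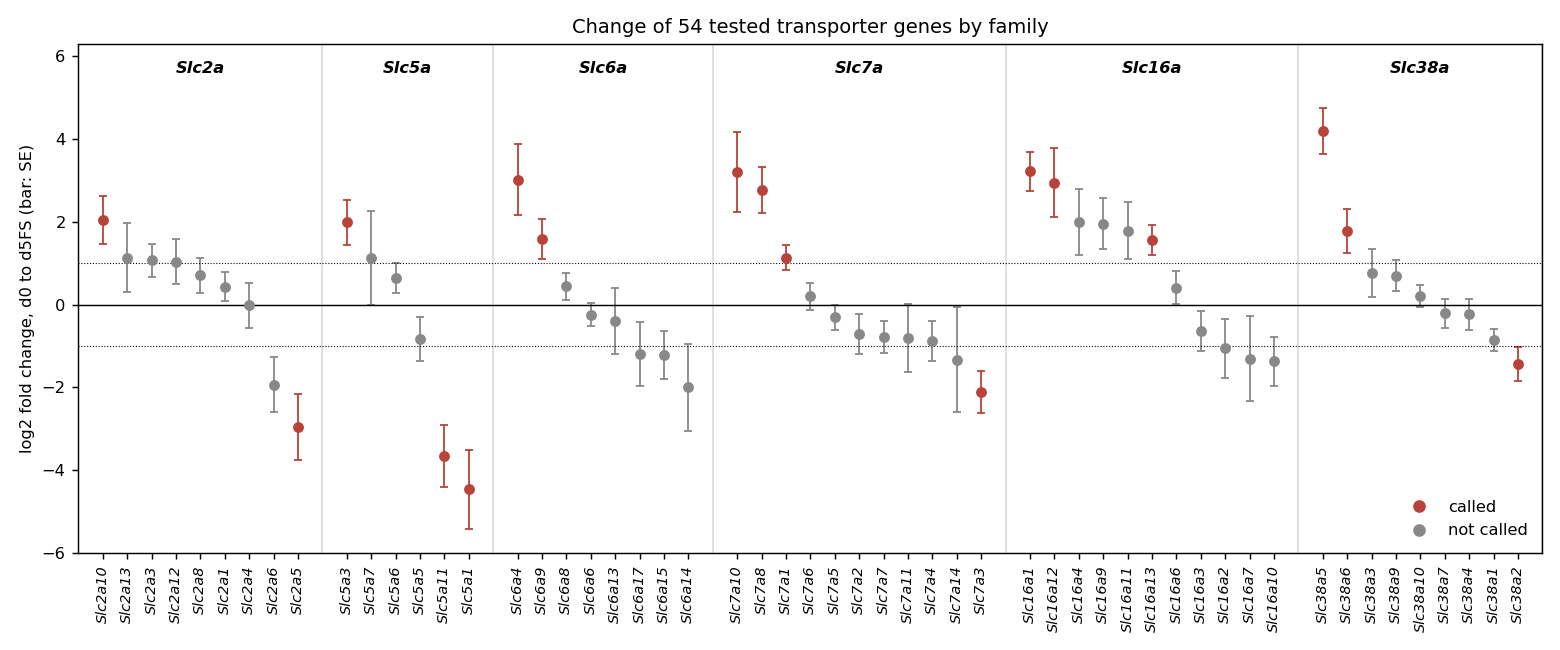
Log2 fold change from d0 to d5FS for 54 of the 55 tested members, grouped by family and ordered by value within it. Error bars are the SE of the fit, red points are 17 of the 18 called genes, grey points the 37 that were not called, and dotted lines mark log2 fold changes of 1 and -1. The 3 called genes of Slc16a are all higher in d5FS, and Slc2a, Slc5a, Slc7a and Slc38a have red points at both ends.

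Of the 18 calls between d0 and d5FS, 2 held in every one of 6 fits that each left out 1 library: those of Slc16a1 and Slc38a5. They also held in the other 8 alternatives tried. For these 2 genes the sequence before the start of transcription is shown, since their calls held throughout. Both hold the short motif ACGTG there, the core of the sites bound by many basic helix-loop-helix factors. The letters are RefSeq sequence of build GRCm38.p6, plus strand, ending at the base before the RefSeq start site, with the motif in capitals. For Slc16a1 they cover chr3:104638414-104638663, and for Slc38a5 they cover chrX:8271261-8271380, which is shorter because GENCODE places earlier first exons of that gene further upstream.
Slc16a1: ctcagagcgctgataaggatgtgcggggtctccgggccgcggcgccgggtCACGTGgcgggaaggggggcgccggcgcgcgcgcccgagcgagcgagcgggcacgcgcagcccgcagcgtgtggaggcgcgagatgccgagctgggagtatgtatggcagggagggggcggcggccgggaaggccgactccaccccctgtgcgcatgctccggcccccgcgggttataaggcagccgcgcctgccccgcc
Slc38a5: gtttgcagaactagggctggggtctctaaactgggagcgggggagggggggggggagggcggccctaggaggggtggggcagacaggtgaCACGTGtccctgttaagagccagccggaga
In both genes the capitals spell the palindrome CACGTG, in which ACGTG is read on both strands, so the overlapping matches are one site. It begins 200 bases before the start in Slc16a1 and 30 bases before it in Slc38a5. ACGTG stood in 19.6% of all 32851 RefSeq promoter windows (250 bases before to 50 after a start, both strands searched), and CACGTG, looked up after these matches had been seen, in 7.15% of all windows and in 7 of the 55 member windows (12.7%). Those 7 include Slc5a1, called lower in d5FS, and members that were not called (Slc6a3, Slc7a14 and Slc38a7). Of the 80 members, 55 had a promoter window, and 16 of these 55 held ACGTG. It was found in 4 of the 11 windows of members called higher in d5FS (Slc2a10, Slc16a1, Slc16a12, Slc38a5) and in 1 of 4 of those called lower (Slc5a1). The other 3 motifs searched, TGATGNAA of amino acid response elements, TGTTTAC of forkhead factors and AGATAA of GATA factors, stood in 3.97%, 3.65% and 11.2% of all windows, in 2, 2 and 4 member windows, and in no window of a member called between d0 and d5FS. A match is a description of these letters and says nothing about binding.

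Slc16a1 encodes the proton-coupled carrier that moves lactate, pyruvate and ketone bodies in most tissues (chromosome 3, 104638668 to 104658462, mm10, GENCODE M21). It stood at 206 and 329 CPM in d0, 589.6 and 1173 in d3F, then 2966 and 2039 in d5FS. The 3 populations did not overlap, and both d5FS samples lay above every other sample. Between d0 and d5FS the level rose 9.36-fold (log2 fold change 3.23 ± 0.47 (SE), adjusted p = 0.00433), and the call was kept in all 6 fits that left out 1 library (log2 fold change 2.91 to 3.62, adjusted p 0.00307 to 0.0248). Neither step was called by itself in the main fit, with log2 fold change 1.72 ± 0.45 (SE), adjusted p = 0.0657 from d0 to d3F, and log2 fold change 1.51 ± 0.44 (SE), adjusted p = 0.13 from d3F to d5FS. The step from d0 to d3F was called by the DESeq2 Wald test and with no filter on low counts. With the replicate block it was called as well (log2 fold change 1.70 ± 0.36 (SE), adjusted p = 0.0352).

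Slc16a3, the lactate carrier of strongly glycolytic cells, was not called in any comparison. It stood at 144 and 73.1 CPM in d0, 224 and 163 in d3F, then 39.8 and 99.2 in d5FS. The d3F samples were above all d0 and d5FS samples, d0 and d5FS overlapped, and from d0 to d5FS the test missed the threshold (log2 fold change -0.64 ± 0.49 (SE), adjusted p = 0.364). The ratio of Slc16a1 to Slc16a3, taken from TPM (a length-corrected share of transcripts) within each sample so that library scaling cancels, was 0.76 and 2.4 in d0, 1.41 and 3.83 in d3F, then 39.7 and 10.9 in d5FS. Both d5FS ratios were above those of d0 and d3F, which overlapped each other. As a share of the summed TPM of the whole Slc16a family, Slc16a1 made up 38.5 and 65.8% in d0, 54.6 and 75.9 in d3F, then 95.4 and 88.3 in d5FS. No share in d5FS overlapped with another population, and the remaining 13 members together made up 4.58% and 11.7% of the family in d5FS.

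The other Slc16a calls were genes of low level. Slc16a13 stood at 6.89 and 6.05 CPM in d0, 12.7 and 17.8 in d3F, then 15.3 and 22.9 in d5FS. Both d5FS samples were above both d0 samples, d3F and d5FS overlapped, and the gene rose 2.95-fold between d0 and d5FS (log2 fold change 1.56 ± 0.37 (SE), adjusted p = 0.0212), but the call was lost without d0 replicate 2 or d5FS replicate 2 (log2 fold change 1.25 to 1.82, adjusted p 0.0354 to 0.102 over the 6 fits that left out 1 library). Slc16a12, which is linked to creatine transport, had 1 and 4 counts in d0, 17 and 9 in d3F, then 16 and 18 in d5FS. Its 5 counts over both d0 samples against 34 over both d5FS samples give a ratio of 8.20 after scaling (95% exact interval 3.19 to 26.9, counting error only). It was called (log2 fold change 2.95 ± 0.83 (SE), adjusted p = 0.0372), but the call was lost whichever of the 6 libraries was left out (log2 fold change 2.19 to 4.29, adjusted p 0.0527 to 0.151). Of the 11 tested members of the family, 3 rose between d0 and d5FS and 0 fell, where 12.4% of all genes were called higher and 10.4% lower. The median log2 fold change of the 11 was 1.56.

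**Figure D2:**
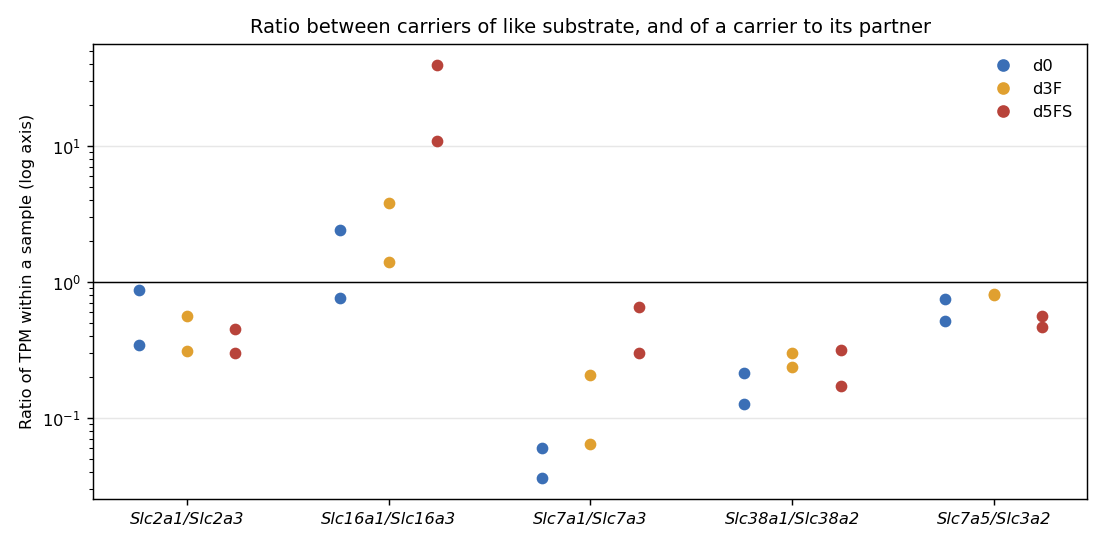
Ratio of TPM values within each sample for 5 fixed pairs of genes, on a log axis, 1 point per sample. The Slc16a1 to Slc16a3 ratio was 39.7 and 10.9 in d5FS against 3.83 or less in the other samples, and the Slc7a1 to Slc7a3 ratio was separate in the 3 populations, from 0.036 and 0.0598 in d0 to 0.302 and 0.653 in d5FS.

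The chaperones of these carriers and the partners of the amino acid carriers were followed in a list of 8 symbols, of which 7 were in the tables (Cltrn is listed under its older name, Tmem27) and 5 were tested. Between d0 and d5FS 2 of the 5 rose and 0 fell, against 12.4% and 10.4% of all genes. In either single step edgeR called 0, with 1 and 2 genes at an unadjusted p under 0.05 (20.6% and 18.1% of all genes). The DESeq2 Wald test called 0 and 1 in these steps, with its share over all genes not given. Emb, embigin, a chaperone of monocarboxylate carriers, stood at 364 and 177 CPM in d0, 510.5 and 504 in d3F, then 1456 and 1521 in d5FS. Both d5FS samples were above all others, and Emb rose between d0 and d5FS (log2 fold change 2.46 ± 0.40 (SE), adjusted p = 0.00573). It was also called with the replicate block from d3F to d5FS (log2 fold change 1.56 ± 0.30 (SE), adjusted p = 0.0347). For Emb the call was kept in all 6 fits that left out 1 library (log2 fold change 2.04 to 3.06, adjusted p 0.00374 to 0.0289). Bsg, basigin, the other chaperone, stood at 317 and 329.5 CPM in d0, 319 and 443 in d3F, then 382 and 474 in d5FS. Its values in d0 were below those of d5FS, d3F overlapped with d5FS, and it was not called (log2 fold change 0.41 ± 0.31 (SE), adjusted p = 0.365). Tmem27, collectrin, a partner of amino acid carriers in kidney, had 0 and 0 counts in d0, 0 and 1 in d3F, then 13 and 13 in d5FS. It was near the limit of detection outside d5FS, and since d0 holds no count no fold change is given (adjusted p = 0.0168). The call was lost without d0 replicate 1 or d0 replicate 2 (adjusted p up to 0.0589), and without either d5FS library Tmem27 was below the filter. The heavy chain Slc3a2 stood at 149.7 and 138 CPM in d0, 202 and 174 in d3F, then 133 and 149.6 in d5FS. Its d0 and d5FS values overlapped (log2 fold change -0.03 ± 0.27 (SE), adjusted p = 0.953).

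Slc38a5 is a carrier of glutamine, asparagine, histidine and serine on the X chromosome (chromosome X, 8271133 to 8280179, mm10, GENCODE M21). It stood at 0.702 and 1.59 CPM in d0, 3.49 and 1.87 in d3F, then 19.3 and 22.5 in d5FS. The d5FS samples were far above the other 4, and the 3 populations did not overlap. Between d0 and d5FS it rose 18.3-fold (log2 fold change 4.19 ± 0.56 (SE), adjusted p = 0.00323), and the call was kept in all 6 fits that left out 1 library (log2 fold change 3.70 to 4.89, adjusted p 0.0025 to 0.0191). It was also the single member called between d3F and d5FS in the main fit, 7.75-fold higher (log2 fold change 2.95 ± 0.52 (SE), adjusted p = 0.0373). In this step the call was lost without d3F replicate 1, d3F replicate 2, d5FS replicate 1 or d5FS replicate 2 (log2 fold change 2.57 to 3.47, adjusted p 0.0106 to 0.168 over the 6 fits that left out 1 library). In d5FS it made up 7.62% and 11.7% of the summed TPM of Slc38a, more than Slc38a1 in the same samples (4.35% and 6.51%).

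The highest members of the family per length were Slc38a2 and Slc38a4, which together with Slc38a1 are carriers of small neutral amino acids whose genes lie near each other on chromosome 15 between 96571418 and 97055956. Slc38a2, known to be induced when amino acids are short, stood at 496 and 252 CPM in d0, 247 and 205 in d3F, then 171 and 105 in d5FS. It was lower in d5FS than in d0 with no overlap (log2 fold change -1.44 ± 0.41 (SE), adjusted p = 0.0376), but the call was lost without d0 replicate 1, d3F replicate 1, d3F replicate 2, d5FS replicate 1 or d5FS replicate 2 (log2 fold change -1.83 to -0.88, adjusted p 0.0237 to 0.167 over the 6 fits that left out 1 library). Slc38a1 stood at 101 and 86.7 CPM in d0, 94.6 and 99.6 in d3F, then 48.8 and 54.3 in d5FS. Its d5FS values were below all others, and with log2 fold change -0.86 ± 0.27 (SE), adjusted p = 0.0497 it was not called, since its log2 fold change was not below -1. Slc38a4 had 253 and 173 CPM in d0, 213 and 261 in d3F, then 234 and 127 in d5FS. All its populations overlapped (log2 fold change -0.24 ± 0.37 (SE), adjusted p = 0.679). The scale of TMM-scaled counts per kilobase of effective length allows levels of different genes to be compared. On it Slc38a2 was the highest of the family in d0 (112 and 56.8, against 68.0 and 46.2 for Slc38a4). In d5FS the highest was Slc38a4 (62.8 and 33.9, against 38.6 and 23.8 for Slc38a2). The order held within each of these samples, although the values of the 2 genes overlapped across the samples of each population. Slc38a10 came next and was above Slc38a1 in all 6 samples, with 17.2 and 18.7 in d0, 19.5 and 22.6 in d3F, then 18.5 and 23 in d5FS on this scale, against 14.1 and 12.2 in d0, 13.2 and 13.9 in d3F, then 6.62 and 7.49 in d5FS for Slc38a1. The ratio of Slc38a1 to Slc38a2 was 0.126 and 0.215 in d0, 0.236 and 0.299 in d3F, then 0.172 and 0.314 in d5FS, with overlap between d5FS and both other populations.

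Slc38a6 stood at 3.42 and 1.59 CPM in d0, 2.96 and 2.58 in d3F, then 11.1 and 6.25 in d5FS. Both d5FS samples were above the others, and it rose between d0 and d5FS (log2 fold change 1.78 ± 0.53 (SE), adjusted p = 0.0443), but the call was lost without d0 replicate 2, d3F replicate 1, d3F replicate 2, d5FS replicate 1 or d5FS replicate 2 (log2 fold change 1.31 to 2.43, adjusted p 0.0278 to 0.243 over the 6 fits that left out 1 library). Altogether 2 of the 9 tested Slc38a members rose and 1 fell between d0 and d5FS, where 12.4% of all genes were called higher and 10.4% lower.

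Slc7a3 and Slc7a1 both carry arginine, lysine and ornithine, and they moved in opposite directions. Slc7a3, on the X chromosome (chromosome X, 101079210 to 101086020), stood at 223 and 131 CPM in d0, 250.1 and 108 in d3F, then 53 and 29 in d5FS. The d5FS samples were below the other 4, while d0 and d3F overlapped. Between d0 and d5FS it fell 4.31-fold (log2 fold change -2.11 ± 0.50 (SE), adjusted p = 0.0209), but the call was lost without d0 replicate 1, d5FS replicate 1 or d5FS replicate 2 (log2 fold change -2.61 to -1.69, adjusted p 0.016 to 0.108 over the 6 fits that left out 1 library). From d3F to d5FS Slc7a3 was called with the replicate block (log2 fold change -2.08 ± 0.21 (SE), adjusted p = 0.00788) but not in the main fit (log2 fold change -2.13 ± 0.50 (SE), adjusted p = 0.0819). Slc7a1 (chromosome 5, 148327410 to 148399904) stood at 25.9 and 25.2 CPM in d0, 51.4 and 72 in d3F, then 51.5 and 60.7 in d5FS. Both d0 samples were below all others, d3F and d5FS overlapped, and it rose 2.2-fold between d0 and d5FS (log2 fold change 1.14 ± 0.30 (SE), adjusted p = 0.0302), but the call was lost whichever of the 6 libraries was left out (log2 fold change 1.02 to 1.24, adjusted p 0.0561 to 0.109). Already in d3F its level was 2.41-fold that of d0, which was not called in the main fit (log2 fold change 1.27 ± 0.30 (SE), adjusted p = 0.0532). That step was called with the replicate block (log2 fold change 1.25 ± 0.22 (SE), adjusted p = 0.0222), with no filter on low counts and by the DESeq2 Wald test. The ratio of Slc7a1 to Slc7a3 within each sample was 0.036 and 0.0598 in d0, 0.0638 and 0.207 in d3F, then 0.302 and 0.653 in d5FS. The 3 populations did not overlap in this ratio, and Slc7a3 stayed the higher of the 2 per length in all 6 samples.

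Among the light chains, Slc7a8, a carrier of large and small neutral amino acids (chromosome 14, 54722209 to 54781946), stood at 1.23 and 1.23 CPM in d0, 2.64 and 1.31 in d3F, then 6.18 and 10.8 in d5FS. The d5FS samples were above all others. It rose 6.87-fold between d0 and d5FS (log2 fold change 2.78 ± 0.56 (SE), adjusted p = 0.0117), but the call was lost without d5FS replicate 2 (log2 fold change 2.34 to 3.12, adjusted p 0.0123 to 0.0657 over the 6 fits that left out 1 library). Slc7a5, its more abundant relative for large neutral amino acids, stood at 107 and 144 CPM in d0, 225 and 197 in d3F, then 85.9 and 117 in d5FS. Both d3F samples were above the other 4, and d0 and d5FS overlapped, but no comparison was called (log2 fold change 0.75 ± 0.31 (SE), adjusted p = 0.21 from d0 to d3F, and log2 fold change -1.06 ± 0.31 (SE), adjusted p = 0.128 from d3F to d5FS). The replicate block gave a lower call from d3F to d5FS (log2 fold change -1.08 ± 0.23 (SE), adjusted p = 0.0422). The ratio of Slc7a5 to its heavy chain Slc3a2 was 0.514 and 0.755 in d0, 0.803 and 0.818 in d3F, then 0.467 and 0.564 in d5FS. It too was highest in d3F, and d0 and d5FS overlapped. Slc7a11, which brings in cystine for glutathione synthesis, stood at 0.789 and 0.718 CPM in d0, 6.78 and 1.97 in d3F, then 0.227 and 0.631 in d5FS. The d3F samples were above all others and differed from each other by more than the d0 and d5FS samples did, and neither step was called (log2 fold change 2.53 ± 0.75 (SE), adjusted p = 0.0966, then log2 fold change -3.34 ± 0.80 (SE), adjusted p = 0.0853).

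Slc7a10, a carrier of small neutral amino acids including D-serine, had 5.08 and 2.04 counts in d0, 4.17 and 6.24 in d3F, then 46.2 and 9.24 in d5FS. Most of its d5FS counts came from replicate 1. The ratio of the summed counts, 55 in d5FS against 7 in d0, was 9.48 after scaling (95% exact interval 4.30 to 24.7, counting error only). It was called (log2 fold change 3.21 ± 0.96 (SE), adjusted p = 0.0448), but the call was lost without d0 replicate 1, d0 replicate 2, d3F replicate 1, d3F replicate 2 or d5FS replicate 1 (log2 fold change 1.62 to 3.96, adjusted p 0.0423 to 0.4 over the 6 fits that left out 1 library). Its exons overlap those of Lrp3 on the opposite strand, and without strand information reads of the 2 genes cannot be told apart there. Of the 11 tested Slc7a members, 3 rose and 1 fell between d0 and d5FS, where 12.4% of all genes were called higher and 10.4% lower. The median log2 fold change of the 11 was -0.72.

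In the Slc2a family the 2 class I carriers Slc2a3 and Slc2a1 held nearly all of the signal. Slc2a3, a high-affinity glucose carrier (chromosome 6, 122727809 to 122801640), stood at 1281 and 1810.1 CPM in d0, 988 and 1706 in d3F, then 2727 and 3750.0 in d5FS. Both d5FS samples were above all others and d0 and d3F overlapped, but the comparison of d0 with d5FS was not called (log2 fold change 1.07 ± 0.40 (SE), adjusted p = 0.0847). With the replicate block it was called (log2 fold change 1.07 ± 0.19 (SE), adjusted p = 0.0073), as was the step from d3F to d5FS (log2 fold change 1.30 ± 0.19 (SE), adjusted p = 0.0184). Slc2a1, the basal glucose carrier of many cells (chromosome 4, 119108711 to 119137983), stood at 707 and 395 CPM in d0, 353 and 333 in d3F, then 779 and 709 in d5FS. Both d3F samples were below all others and both d5FS samples above the higher d0 sample, with no call in either step (log2 fold change -0.68 ± 0.35 (SE), adjusted p = 0.325, then log2 fold change 1.12 ± 0.35 (SE), adjusted p = 0.151). The step from d3F to d5FS was called with the replicate block (log2 fold change 1.12 ± 0.24 (SE), adjusted p = 0.045). Per kilobase, Slc2a3 was the higher of the 2 in every sample, with a ratio of Slc2a1 to Slc2a3 of 0.876 and 0.345 in d0, 0.567 and 0.309 in d3F, then 0.453 and 0.299 in d5FS. All populations overlapped in that ratio. An exon of Slc2a1 overlaps Gm12868 on the opposite strand.

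Of the 9 tested Slc2a members, 1 rose and 1 fell between d0 and d5FS, where 12.4% of all genes were called higher and 10.4% lower. The 2 called Slc2a genes were of low level. Slc2a10, which carries dehydroascorbate and glucose, stood at 0.482 and 0.615 CPM in d0, 1.1 and 1.82 in d3F, then 2.04 and 2.52 in d5FS. The populations did not overlap, and it rose 4.13-fold between d0 and d5FS (log2 fold change 2.05 ± 0.59 (SE), adjusted p = 0.0387), but the call was lost whichever of the 6 libraries was left out (log2 fold change 1.87 to 2.24, adjusted p 0.0723 to 0.138). Slc2a5, the fructose carrier, had 28 and 47 counts in d0, 8 and 12 in d3F, then 2 and 6 in d5FS. Both d0 samples were above all others, and it was called lower in d5FS (log2 fold change -2.96 ± 0.80 (SE), adjusted p = 0.0316), but the call was lost without d0 replicate 2, d3F replicate 1, d3F replicate 2, d5FS replicate 1 or d5FS replicate 2 (log2 fold change -3.92 to -2.38, adjusted p 0.0315 to 0.194 over the 6 fits that left out 1 library). Slc2a2, the low-affinity glucose carrier of liver and beta cells, had at most 3 counts in any sample and was not tested.

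Of the 6 tested Slc5a members, 1 rose and 2 fell between d0 and d5FS, where 12.4% of all genes were called higher and 10.4% lower. Both Slc5a genes called lower are sodium-coupled carriers of sugar or inositol. Slc5a11, an inositol carrier (chromosome 7, 123214780 to 123273253), stood at 3.55 and 5.23 CPM in d0, 0.609 and 0.253 in d3F, then 0.17 and 0.516 in d5FS. The d0 samples were above the other 4, and d3F and d5FS overlapped. It was the only member called between d0 and d3F in the main fit, where it fell 9.9-fold (log2 fold change -3.31 ± 0.71 (SE), adjusted p = 0.039). In this step the call was lost without d0 replicate 2, d3F replicate 1, d3F replicate 2, d5FS replicate 1 or d5FS replicate 2 (log2 fold change -4.08 to -2.82, adjusted p 0.0343 to 0.288 over the 6 fits that left out 1 library). Between d0 and d5FS it was 12.6-fold lower (log2 fold change -3.65 ± 0.74 (SE), adjusted p = 0.0123), but the call was lost without d5FS replicate 1 (log2 fold change -4.63 to -3.08, adjusted p 0.0136 to 0.0883 over the 6 fits that left out 1 library).

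Slc5a1, the sodium-coupled carrier of glucose and galactose in intestine (chromosome 5, 33104219 to 33162870), had 38 and 71 counts in d0, 11 and 2 in d3F, then 1 and 3 in d5FS. Most of its counts were in d0, although the 2 d0 samples themselves differed more than 2-fold in CPM (1.67 and 3.64). The 109 counts in d0 against 4 in d5FS give a ratio of 22.6 after scaling (95% exact interval 8.57 to 84.4, counting error only). It was called lower in d5FS (log2 fold change -4.46 ± 0.96 (SE), adjusted p = 0.0149), but the call was lost without d0 replicate 2, d5FS replicate 1 or d5FS replicate 2 (log2 fold change -5.39 to -3.79, adjusted p 0.0125 to 0.11 over the 6 fits that left out 1 library). Slc5a3, a sodium-coupled carrier of myo-inositol, moved the other way and stood at 26.3 and 18 CPM in d0, 40.8 and 55.1 in d3F, then 137 and 40 in d5FS. The 2 d5FS samples differed 3.41-fold, and d3F and d5FS overlapped. It was called higher in d5FS than in d0 (log2 fold change 1.99 ± 0.54 (SE), adjusted p = 0.0329), but the call was lost without d0 replicate 1, d0 replicate 2 or d5FS replicate 1 (log2 fold change 0.85 to 2.63, adjusted p 0.0156 to 0.23 over the 6 fits that left out 1 library). Its exons overlap those of Mrps6 on the same strand, so part of the reads may be assigned to either gene. Slc5a6, the carrier of biotin and pantothenate, was the highest Slc5a member in d0 and d3F by mean TPM. It stood at 12.9 and 16.9 CPM in d0, 17.9 and 23.2 in d3F, then 17.5 and 28.8 in d5FS, with d5FS above d0 and no call (log2 fold change 0.64 ± 0.37 (SE), adjusted p = 0.234), and its exons overlap those of Atraid on the opposite strand.

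**Figure D3:**
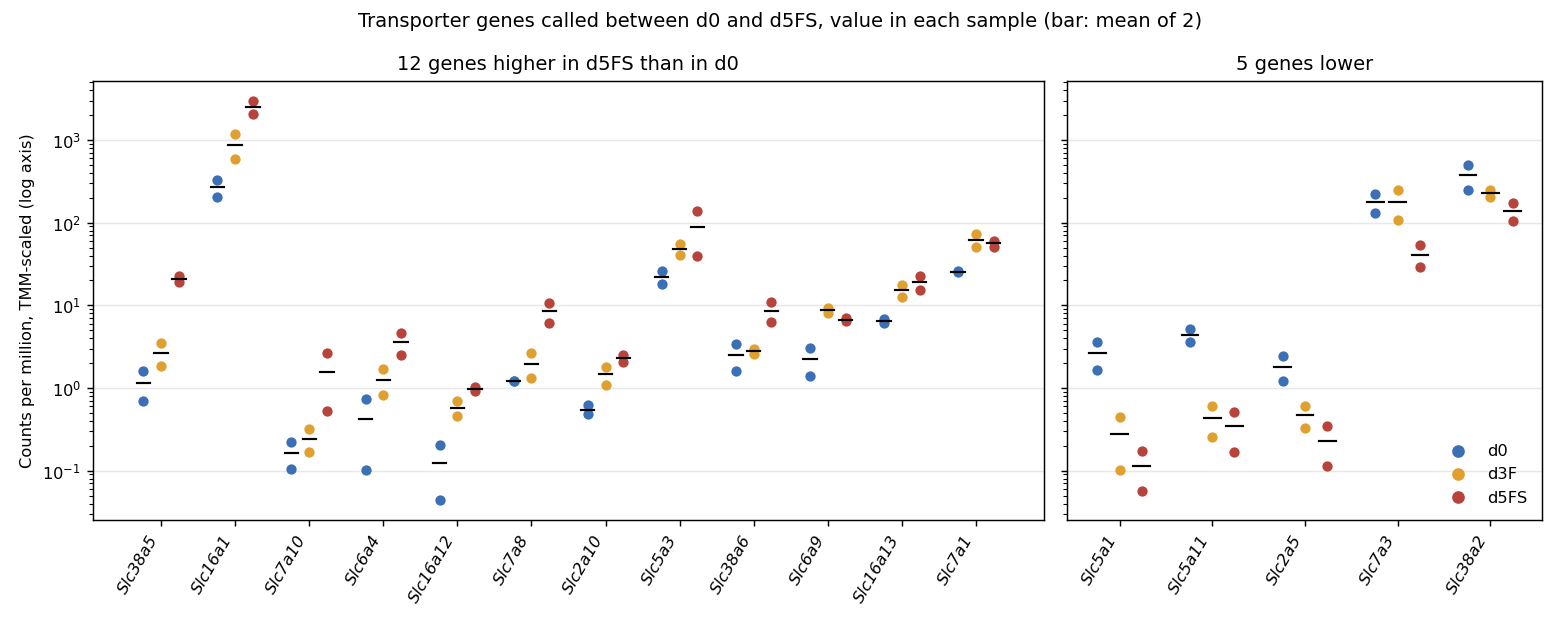
CPM after TMM scaling, on a log axis, of 17 of the 18 members called between d0 and d5FS, 1 point per sample with a bar at the mean of each population. Among the 12 higher genes Slc16a1 is the most abundant, at 2966 and 2039 CPM in d5FS, and 3 of the 5 lower genes plotted, Slc5a1, Slc5a11 and Slc2a5, stayed at 0.516 CPM or less in both d5FS samples.

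Of the 9 tested Slc6a members, 2 carriers of neurotransmitters rose between d0 and d5FS, where 12.4% of all genes were called higher. Slc6a9, a glycine carrier, stood at 1.4 and 3.08 CPM in d0, 8.12 and 9.3 in d3F, then 6.47 and 6.99 in d5FS. Both d0 samples were below the other 4, and d3F was above d5FS. It rose 3.01-fold between d0 and d5FS (log2 fold change 1.59 ± 0.48 (SE), adjusted p = 0.0454), but the call was lost without d0 replicate 1, d3F replicate 1, d3F replicate 2, d5FS replicate 1 or d5FS replicate 2 (log2 fold change 1.12 to 2.27, adjusted p 0.0277 to 0.139 over the 6 fits that left out 1 library). Its exons overlap those of B4galt2 and Ccdc24 on the opposite strand. In d3F its level was already 3.89-fold that of d0, which missed the threshold in the main fit (log2 fold change 1.96 ± 0.48 (SE), adjusted p = 0.0572). That step was called with the replicate block (log2 fold change 2.02 ± 0.40 (SE), adjusted p = 0.0295), with no filter on low counts and by the DESeq2 Wald test.

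Slc6a4, the serotonin carrier, stood at 0.746 and 0.103 CPM in d0, 0.812 and 1.72 in d3F, then 4.6 and 2.52 in d5FS. The populations did not overlap, although the d0 samples differed 7.27-fold. It was called higher in d5FS than in d0 (log2 fold change 3.02 ± 0.86 (SE), adjusted p = 0.0385), but the call was lost without d0 replicate 2, d3F replicate 1, d3F replicate 2, d5FS replicate 1 or d5FS replicate 2 (log2 fold change 2.26 to 5.02, adjusted p 0.0148 to 0.184 over the 6 fits that left out 1 library).

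The abundant Slc6a genes were not called. Slc6a6, the taurine carrier, was the highest of the family by mean TPM in all 3 populations, at 97.5 and 93.6 CPM in d0, 108 and 135 in d3F, then 89.8 and 71.6 in d5FS, and its d5FS values were below the others (log2 fold change -0.24 ± 0.28 (SE), adjusted p = 0.561). Slc6a8, the creatine carrier, stood at 26.9 and 24.8 CPM in d0, 23.8 and 15.2 in d3F, then 37.7 and 32.3 in d5FS. Its d3F samples were the lowest and its d5FS samples the highest, again with no call (log2 fold change 0.44 ± 0.33 (SE), adjusted p = 0.359). Slc6a19, a neutral amino acid carrier of intestine and kidney, had 7 counts in d3F replicate 1 and at most 1 elsewhere, and was not tested.

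The 25 members below the filter on low counts had at most 31 counts in any sample and at most 0.17 TPM, and 15 of them had 0 counts in at least 1 sample. None of the 80 was at 0 in all 6. They comprise 8 members of Slc6a, 5 of Slc5a, 4 of Slc7a, 3 each of Slc2a and Slc16a, and 2 of Slc38a. They were left out of the test.

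The summed level of a family was compared on both length-corrected scales, since TPM moves with the libraries. Genes with an effective length under 400 bases, small nucleolar RNAs among them, took 69.4% to 85.2% of all TPM per sample, and Snord22 alone took 33.0% in d5FS replicate 2 against 0 in the other 5 libraries. In deposited TPM the Slc2a sum was 421 and 202 in d0, 283 and 243 in d3F, then 487 and 386 in d5FS. In TMM-scaled counts per kilobase it was 646 and 654 in d0, 421 and 603 in d3F, then 1061 and 1302 in d5FS. On the second scale the d0 samples lay close together and both d5FS samples were above the other 4, while on the TPM scale the lower d5FS sample was below the higher d0 sample.

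For Slc16a the TPM sums were 82.5 and 36.4 in d0, 172 and 147 in d3F, then 337 and 162 in d5FS, and the TMM-scaled sums 127 and 118 in d0, 256 and 365 in d3F, then 735 and 545 in d5FS. Both scales put both d3F and both d5FS samples above d0, and on the TMM scale the 3 populations were separate. For Slc7a the TPM sums were 127 and 46.7 in d0, 170.4 and 70.8 in d3F, then 41.2 and 30.5 in d5FS, and the TMM-scaled sums 195 and 152 in d0, 254 and 175 in d3F, then 89.6 and 103 in d5FS. The d5FS samples were the lowest on both scales. For Slc38a, the TMM-scaled sums of 222 and 146 in d0, 162 and 166 in d3F, then 152 and 115 in d5FS overlapped between d0 and d5FS, as did the TPM sums.

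Slc5a and Slc6a were the families of lowest level, with TMM-scaled sums of 12.3 to 20.5 for Slc5a and 26.6 to 35.8 for Slc6a over the 6 samples. In d5FS the order of the families was the same in both samples, Slc2a, Slc16a, Slc38a, Slc7a, Slc6a and Slc5a from high to low. On the TMM scale the Slc38a and Slc7a sums, neighbours in that order, did not overlap in d5FS (152 and 115 against 89.6 and 103), and those of d0 did (222 and 146 against 195 and 152). In TPM the sums of these families overlapped in d5FS as well (70.0 and 34.1 against 41.2 and 30.5). No test was run on these sums.

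**Figure D4:**
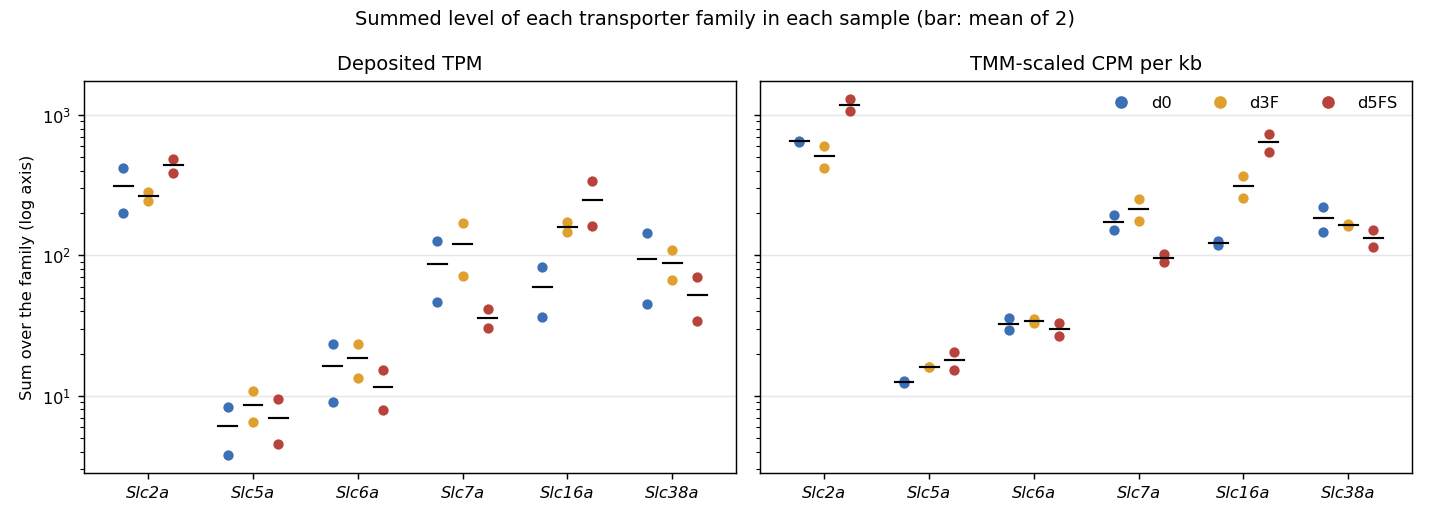
Sum over the members of each family in each sample, on a log axis, as deposited TPM and as TMM-scaled CPM per kilobase of effective length, with a bar at the mean of each population. The d0 samples of Slc2a lie at 421 and 202 in TPM but at 646 and 654 on the TMM scale. The mean of Slc16a is highest in d5FS on both, but in TPM its lower d5FS sample (162) lies below its higher d3F sample (172).

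No member was called when d3F was set against the mean of d0 and d5FS, against 0.413% of all genes tested. At an unadjusted p under 0.05 there were 11 of the 55 members, or 20.0%, against 11.2% of all genes. With DESeq2, 1 member was called by the Wald test at these cut-offs and 0 by the test that sets a log2 fold change of 1 as its null. Their shares over all genes are not given. The smallest adjusted p values were those of Slc7a11 (log2 fold change 2.93 ± 0.61 (SE), adjusted p = 0.102), Slc7a5 (log2 fold change 0.90 ± 0.26 (SE), adjusted p = 0.194) and Slc7a6 (log2 fold change 0.89 ± 0.27 (SE), adjusted p = 0.233). Each had both d3F samples above all d0 and d5FS samples. All are light chains of heteromeric carriers, and the other 3 tested light chains had log2 fold changes of 0.28 (Slc7a7), -0.70 (Slc7a8) and -1.13 (Slc7a10) in this comparison. A single member was called here with the block, Slc7a3 (log2 fold change 1.01 ± 0.17 (SE), adjusted p = 0.049), against 1.18% of all genes. Its d3F values overlapped those of d0 (250.1 and 108 CPM against 223 and 131), and only its d5FS values were lower (53 and 29).

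Other amino acid carriers, of the Slc1a, Slc36a and Slc43a families, were taken as a list of 14 genes, 11 of them tested. Of these 11, 1 rose from d0 to d3F and from d0 to d5FS (2.80% and 12.4% of all genes), and none fell in any comparison. With the replicate block 2 rose from d0 to d3F (Slc1a5 besides), against 5.57% of all genes, and Slc1a3 was lower in d5FS than in either other population. Slc1a3 and Slc1a4 were also called higher with the block in d3F against the mean of d0 and d5FS, where 0.887% of all genes were called higher. The gene called without the block was Slc1a4, a carrier of serine, alanine and threonine, at 18.8 and 26.9 CPM in d0, 80.9 and 95.9 in d3F, then 66.5 and 69.2 in d5FS (log2 fold change 1.95 ± 0.31 (SE), adjusted p = 0.0148 from d0 to d3F, and log2 fold change 1.57 ± 0.30 (SE), adjusted p = 0.0104 from d0 to d5FS). Both d0 samples were below the other 4. From d0 to d3F the call was lost without d3F replicate 2 (log2 fold change 1.72 to 2.25, adjusted p 0.0321 to 0.109 over the 6 fits that left out 1 library), and from d0 to d5FS it was kept in all 6. The median log2 fold change of the 11 was -0.08 from d0 to d5FS.

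Carriers are known targets of nutrient sensing, and genes of these responses were counted as well. Of 5 genes of the carbohydrate response around Mlx and Txnip, all tested, edgeR called 0 in any comparison. At an unadjusted p under 0.05 there were 1, 2 and 2 genes from d0 to d3F, d3F to d5FS and d0 to d5FS (20.6%, 18.1% and 38.9% of all genes). The DESeq2 Wald test called 0, 2 and 0, and its share over all genes is not given. Txnip, an arrestin-like protein that promotes internalisation of glucose carriers, stood at 118 and 175 CPM in d0, 38.7 and 92.6 in d3F, then 236 and 357 in d5FS. Its d3F samples were below the others and its d5FS samples above them (log2 fold change 2.18 ± 0.47 (SE), adjusted p = 0.065 from d3F to d5FS). With the replicate block Txnip was called in all 3 comparisons of 2 populations, and in that step with log2 fold change 2.26 ± 0.24 (SE), adjusted p = 0.00969, and Arrdc4 was called from d3F to d5FS. With the block Txnip was also called lower in d3F against the mean of d0 and d5FS (log2 fold change -1.76 ± 0.22 (SE), adjusted p = 0.0261), where 0.296% of all genes were called lower. Of 18 genes of the amino acid response, all tested, 1 rose between d0 and d5FS and 0 fell, against 12.4% and 10.4% of all genes. In either single step edgeR called 0, where 3 and 8 genes had an unadjusted p under 0.05 (20.6% and 18.1% of all genes). The DESeq2 Wald test called 2 and 3 in these steps, with no share over all genes given. With the replicate block 3 rose from d0 to d3F, 3 fell from d3F to d5FS and 4 rose from d0 to d5FS (5.57%, 3.04% and 15.9% of all genes). The median log2 fold change of the 18 was 0.09 from d0 to d5FS. The one that rose without the block was Ddit3, a stress-induced transcription factor, at 4.56 and 6.05 CPM in d0, 4.59 and 8.59 in d3F, then 16.2 and 13.8 in d5FS (log2 fold change 1.50 ± 0.43 (SE), adjusted p = 0.0384), with both d5FS samples above the others, but the call was lost without d0 replicate 1, d0 replicate 2, d5FS replicate 1 or d5FS replicate 2 (log2 fold change 1.30 to 1.73, adjusted p 0.0447 to 0.164 over the 6 fits that left out 1 library). Atf4, the main regulator of this response, stood at 208 and 259.7 CPM in d0, 334 and 331 in d3F, then 219 and 270.3 in d5FS. Both d3F samples of Atf4 were above all others, with neither step called. Its d0 and d5FS values overlapped (log2 fold change 0.06 ± 0.29 (SE), adjusted p = 0.892 from d0 to d5FS). Asns, asparagine synthetase and a target of Atf4, stood at 165 and 364 CPM in d0, 382 and 461 in d3F, then 269 and 260.4 in d5FS. Both d3F samples of Asns were above all others, again with neither step called. Its d5FS values lay between those of the d0 samples (log2 fold change 0.00 ± 0.39 (SE), adjusted p = 0.997 from d0 to d5FS).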

How the data were processed

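Per the labels and the methods of the study, RNA was depleted of ribosomal RNA, paired-end libraries were made with the TruSeq V2 kit and reads were aligned to mm10 with STAR. A sample list of the study instead names 1 library of each population as mRNA and 1 as total RNA, without replicate numbers, so a difference between replicates may include a difference in preparation and this could not be modelled directly. For each sample the authors deposited RSEM output by gene. Its expected counts, as deposited, carry no normalization, whereas the TPM values that the authors deposited are scaled by effective length and to a fixed total. Effective lengths deposited by the authors, in bases rather than any other unit, served to scale counts per kilobase. The deposited FPKM values were not used. Versions of STAR and RSEM are not given in the sources used here, and whether counting used strand is not stated.

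Expected counts were rounded to whole numbers and tested with edgeR 4.0.16 in R 4.3.3 (filterByExpr, TMM, glmQLFit and glmQLFTest, 3 residual degrees of freedom, all 6 samples in one fit). The SE was obtained by dividing the size of the log2 fold change by the root of the F value. With 2 samples against 2, an exact permutation test cannot go below p = 0.333, so none was run. Replicates differed by 85 to 190.4 chi-square per degree of freedom over tested genes, far above sampling noise. Alternatives were DESeq2 1.42.0, glmTreat, other filters and scaling, a replicate block, fits of only the populations compared, and fits leaving out each library. Same-numbered samples deviated together (correlations of 0.354, 0.381 and 0.343 between populations), so values with the block are given where they change a call. The number comes from the labels, which do not say what it marks. The test was tried on simulated data.

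Named are all called members but 1 that is not reported here, the highest member by mean TPM per family and population, 17 fixed carriers, and called or fixed genes of the lists. Slc7a6 was added after its values were seen. Members and lists were chosen with earlier results of these data known.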

Additional observations from a re-analysis of the deposited data

How the results depend on the processing

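The calls rest on 2 samples per population, and the threshold and the libraries decide many of them. From d0 to d5FS the 18 calls became 17 with DESeq2 size factors, 23 with no filter on low counts, 12 with at least 10 counts in every sample, 19 with the DESeq2 Wald test and 12 in the fit of only the 2 populations compared. Tests against a log2 fold change of 1 left 5, both with glmTreat and with DESeq2, of which 3 were higher and 2 lower. Without 1 library the number was 4 (without d5FS replicate 1) to 10 (without d0 replicate 1). The 12 higher calls became 7 in the fit of only the 2 populations compared and 4 to 6 without 1 library. The 6 lower calls became 2 with at least 10 counts in every sample, and 0 to 4 without 1 library. A fit without 1 library has fewer residual degrees of freedom, and its lone sample is assumed to vary like the other populations. The single call from d0 to d3F became 10 with no filter and 7 with the DESeq2 Wald test, but 0 with at least 10 counts, with either test against a log2 fold change of 1, and 0 to 2 without 1 library. The single call from d3F to d5FS became 15 with no filter, 11 with the Wald test, 2 in the fit of only the 2 populations compared, 0 with glmTreat and 0 to 2 without 1 library. For d3F against the mean of d0 and d5FS the count of 0 became 3 with no filter and 1 with the Wald test, and stayed 0 without each library. The cause was not tested. For these alternative settings the share of all genes called is not given, so their counts stand without a background.

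With a replicate block, 21 members were called from d0 to d5FS (14 higher, 7 lower), 5 from d3F to d5FS, 4 from d0 to d3F, and 1 for d3F against the mean of d0 and d5FS. The block ended no call of a member. The calls it added for genes described above stand with them, and it further called Slc16a9 higher (log2 fold change 1.84, adjusted p = 0.0242) and Slc6a15 lower (-1.13, 0.0235) from d0 to d5FS, named here after their values were seen.

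Signs were compared over the alternatives for selected pairs of a member and a comparison, the called pairs among them. In these pairs, signs turned in the fits without 1 library only, and only in comparisons that were not called. The log2 fold change ranged over these fits from -0.63 to 0.15 for Slc2a3 (d0 to d3F), from -1.33 to 0.42 for Slc5a11 (d3F to d5FS), and from -0.75 to 0.15 for Slc38a4 (d0 to d5FS). Other pairs, such as Slc7a3 from d0 to d3F, and the genes of the lists were not compared in this way. The 25 members below the filter had at most 31 counts in any sample.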
